A study of Mus musculus with 6 samples.

Results

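Caprin2, Tdrd7, Caprin1, Celf1 and Stau1 encode RNA-binding or granule-scaffold proteins that act on messenger RNA after its transcription. Their transcripts were followed in whole mouse eyeballs with and without the chromatin remodeler Brg1 in the lens lineage. The 5 genes were chosen for their roles in lens RNA granules with earlier results of these arrays known, so that the values below describe them and give no independent support. They are 5 of 12393 genes on the array that at least 1 probe set names alone, and 16 of 22626 probe sets name them (1 each for Caprin2 and Tdrd7, 6 for Caprin1, 5 for Celf1 and 3 for Stau1). Per gene, the probe set with the highest mean log2 value over all 6 arrays was selected on that mean alone, which does not use genotype. All other probe sets are shown beside it.

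Eyeballs were taken at postnatal day 1 from 3 wild-type and 3 Brg1 cKO pups of mixed background, 1 eyeball and 1 array each. The Brg1 cKO pups were homozygous for floxed Brg1 alleles (Brg1 flox/flox) and carried Le-Cre. This transgene acts in the head surface ectoderm, the source of lens, corneal epithelium and eyelid epidermis. The labels and the study's account of the arrays call the controls wild type, and the latter calls them littermates. Whether they carried floxed Brg1 alleles, as controls elsewhere in the study did, is not stated for these arrays. No Le-Cre control was hybridised, so that in these arrays Cre and the loss of Brg1 cannot be told apart. The study reports that Le-Cre mice looked like wild type in phenotype. By its account the deletion was often incomplete and the eye phenotype varied between pups.

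RNA granules are assemblies of messenger RNA and protein without a membrane, in which transcripts are stored, moved, translated or degraded. Stress granules hold stalled translation complexes, processing bodies hold decay enzymes, and Staufen granules carry transcripts along the cytoskeleton. In the lens, fiber cells lose their nuclei and organelles while they mature, so that they depend on transcripts made earlier, and loss of Tdrd7, Celf1 or Caprin2 is known to disturb the mouse lens.

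Smarca4, which encodes Brg1, was the check on the labels. Its brighter probe set read log2 10.11, 9.82 and 9.81 in the wild types and 10.35, 9.93 and 9.98 in the mutants. Here and below, values stand in the order of replicates 1 to 3, wild type first. The dimmer one read 9.21, 8.37 and 8.67 against 7.82, 7.78 and 8.55. The groups overlapped in both (limma adjusted p = 0.866 and 0.598), so that the whole-eye arrays did not show the deletion. Across all arrays, median intensity was 169.1 to 185.5, and Brg1 cKO replicate 2 stood apart with correlations of 0.957 to 0.966 with the wild-type arrays, against 0.972 to 0.983 for the other Brg1 cKO arrays. Brg1 cKO replicate 1 was the only male by Xist, at log2 4.88 against 12.30 to 12.92.

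The promoter windows of Caprin2 and Tdrd7 are printed first because these are the genes whose arrays parted by genotype with the widest gap. The windows come from RefSeq (GRCm38.p6), run from 250 bases before to 50 bases after an annotated transcript start, and so cover the proximal promoter and the beginning of the first exon. All 5 genes matched, with 8 windows between them. The Tdrd7 windows shown are 2 of its 3 annotated starts. Capitals mark motif matches found on either strand, and the arrays do not show which start the eye uses.

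Caprin2, chr6:148896188-148896487, minus strand: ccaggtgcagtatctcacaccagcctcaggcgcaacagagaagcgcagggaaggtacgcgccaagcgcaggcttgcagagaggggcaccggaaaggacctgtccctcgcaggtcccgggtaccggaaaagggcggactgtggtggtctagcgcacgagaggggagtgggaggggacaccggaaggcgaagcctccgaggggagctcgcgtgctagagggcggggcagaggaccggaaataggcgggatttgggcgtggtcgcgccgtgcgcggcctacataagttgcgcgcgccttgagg
Tdrd7 start 1, chr4:45965085-45965384, plus strand: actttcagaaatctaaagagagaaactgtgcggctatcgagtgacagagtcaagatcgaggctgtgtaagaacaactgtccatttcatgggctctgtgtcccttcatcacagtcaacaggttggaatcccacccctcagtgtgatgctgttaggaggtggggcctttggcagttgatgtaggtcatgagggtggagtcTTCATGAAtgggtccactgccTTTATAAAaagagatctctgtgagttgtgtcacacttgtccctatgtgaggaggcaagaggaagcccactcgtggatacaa
Tdrd7 start 2, chr4:45972047-45972346, plus strand: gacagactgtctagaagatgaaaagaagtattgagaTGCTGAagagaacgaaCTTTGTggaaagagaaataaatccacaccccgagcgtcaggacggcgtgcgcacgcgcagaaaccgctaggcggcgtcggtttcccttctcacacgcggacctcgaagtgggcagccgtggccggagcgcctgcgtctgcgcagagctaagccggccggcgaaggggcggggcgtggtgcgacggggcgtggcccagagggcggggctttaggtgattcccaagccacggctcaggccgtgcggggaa

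The Caprin2 window held 29 CpG dinucleotides at 66.7% GC, and none of the 6 motifs searched. The Tdrd7 windows differed among themselves. Start 1 lay in a CpG-poor stretch (4 CpG, 48.3% GC), where the median over all 32851 RefSeq windows was 7 CpG and 52.7% GC. The downstream starts had 32 CpG each, at 63.0% and 70.3% GC. Start 1 held TTCNNGAA, the pair of inverted units that heat shock factors bind, 52 bases before the start, and TATAAA 29 bases before the start on the plus strand, with an overlapping match on the minus strand 31 bases before. Start 2 held TGCTGA, the MAF half-site, 214 bases before the start and ACAAAG, the core SOX proteins bind, 198 bases before it on the minus strand. The third start held none of the motifs. Of all windows, 8.5% held TTCNNGAA, 19.5% TGCTGA, 18.7% ACAAAG and 13.6% TATAAA. GAANNTTC, the same heat shock units in the opposite arrangement, was in 7.9% and TGANTCA, the AP-1 site, in 7.8%, and neither was in a window of the 5 genes. ACAAAG was also in 1 window each of Caprin1, Celf1 and Stau1. These matches describe letters and not binding.

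Caprin2, an RNA-binding protein of the caprin family that is made in lens fiber cells, had lower values in the Brg1 cKO than in the wild-type eyeballs. Its probe set (1427944_at) read log2 10.58, 10.99 and 10.56 in the wild types against 8.37, 9.05 and 7.97 in the mutants. Every Brg1 cKO value lay below every wild-type value, and replicate 2 was the highest of the mutants. The means were 10.71 ± 0.25 and 8.46 ± 0.54 (SD, n = 3), a difference of -2.25 (SE 0.30, 95% interval -2.94 to -1.55), or 21.1% of the wild-type intensity. Caprin2 fell with a limma adjusted p of 0.0287. The same threshold was passed by 0.508% of all probe sets (115 of 22626) in either direction, by 0.203% in the lower direction, and by 0.694% of genes represented by their brightest probe set. An exact two-sided permutation test gave p = 0.1, the smallest value that 3 arrays against 3 allow. The call ended when any 1 of the other 5 arrays than Brg1 cKO replicate 2 was left out (adjusted p = 0.0719 to 0.153), and without Brg1 cKO replicate 2 the difference was -2.54 (adjusted p = 0.00672). With a pseudocount of 16 it was -2.20 and did not pass (adjusted p = 0.0933).

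Tdrd7 encodes a tudor domain protein that is a scaffold of RNA granules in lens fibers and of germ granules in the testis, and its loss causes cataract in mouse and human. Its probe set (1426716_at) read 10.03, 10.31 and 10.39 in the wild types against 7.75, 8.86 and 7.63 in the Brg1 cKO eyeballs. The groups did not overlap, and again Brg1 cKO replicate 2 was nearest to the wild types. The means were 10.24 ± 0.19 and 8.08 ± 0.68 (SD, n = 3), a difference of -2.16 (SE 0.34, 95% interval -2.96 to -1.37), or 22.3% of the wild-type intensity. With an adjusted p of 0.0535 Tdrd7 missed the limma threshold (exact permutation p = 0.1). Without Brg1 cKO replicate 2 the difference was -2.56 and passed (adjusted p = 0.00360). At an unchanged -2.16 it also passed with a trended, robust variance (0.0284) and with genes as the mean of their probe sets (0.0311). That mean leaves the values of Tdrd7 as they were, because it has 1 probe set, and only the fit around it changes, with 12393 rows in place of 22626.

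All Brg1 cKO values lay below all wild-type values in 6.44% of all probe sets (1456 of 22626), and among the 16 probe sets here in 4, those of Caprin2 and Tdrd7 and 2 of Celf1. Caprin2 and Tdrd7 kept close to each other from array to array. The Caprin2 value minus the Tdrd7 value was 0.55, 0.68 and 0.17 in the wild types against 0.62, 0.19 and 0.34 in Brg1 cKO eyeballs, so that the groups overlapped (difference -0.08, exact permutation p = 0.8).

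**Figure D1:**
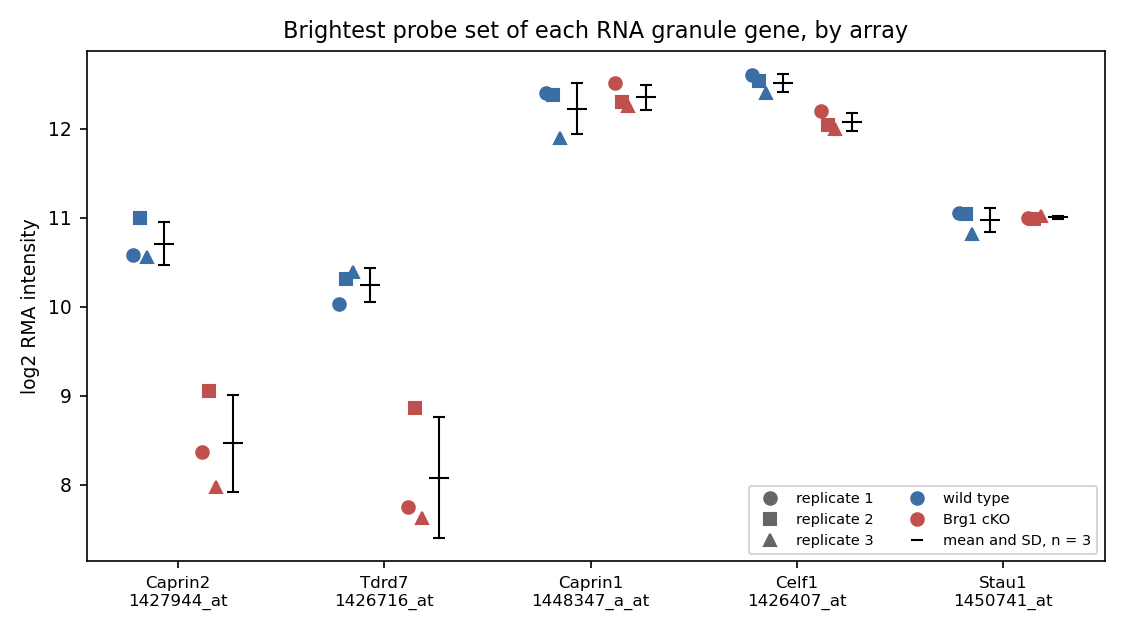
Log2 RMA intensity (vertical axis) of the brightest probe set of each gene in 3 wild-type (blue) and 3 Brg1 cKO (red) arrays, with marker shapes for the replicate number and black bars for mean and SD. Caprin2 and Tdrd7 part by about 2 log2 units, Celf1 by 0.43, and the Caprin1 and Stau1 groups overlap. Heights of different genes cannot be compared.

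The lens markers moved with both genes. Lens fiber and crystallin markers, 18 of 27 listed having a probe set of their own, all had lower means in Brg1 cKO eyeballs, with differences of -4.63 to -0.75 and a median of -2.60. Of these, 16 were at an unadjusted limma p below 0.05, against 9.3% of all genes. Gja3 (a fiber cell connexin) was the 1 marker past the adjusted threshold, against 0.694% of all genes. The summed intensity of the markers was 168990 to 190814 in wild-type and 22891 to 112754 in Brg1 cKO arrays. Of the 18, 3 had a Brg1 cKO mean under log2 4.84, the 25th percentile of all values. In such tissue, fewer lens cells and less RNA per cell cannot be told apart.

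Each Brg1 cKO array was set against the mean of the wild types. The mean of the 18 markers differed from it by -2.62, -1.12 and -4.07 log2 units. For Caprin2 these differences were -2.34, -1.66 and -2.74, and for Tdrd7 -2.50, -1.38 and -2.61. Both genes and the markers were nearest to wild type in replicate 2 and lowest in replicate 3, and in replicate 3 the markers lay below both genes by more than 1 log2 unit.

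Against the lens marker mean of its own array, Caprin2 read -1.71, -1.54 and -1.90 in the wild types against -1.44, -2.25 and -0.38 in Brg1 cKO eyeballs. The Brg1 cKO values lay above, below and far above the wild-type range, and the difference of 0.36 was not past the test (exact permutation p = 0.7). Tdrd7 read -2.26, -2.22 and -2.06 in the wild types against -2.06, -2.44 and -0.73 in Brg1 cKO eyeballs, with a difference of 0.44 (exact permutation p = 0.7). Neither gene had a lower mean relative to the lens markers, but the value rests on single arrays. Without Brg1 cKO replicate 3 the differences were -0.13 and -0.07, and without replicate 2 they were 0.80 and 0.79 (exact permutation p = 0.1, the smallest that 3 arrays against 2 allow). Of the 18 markers, 11 had a more negative difference than Caprin2 and the same number a more negative one than Tdrd7. By array, 11, 5 and 15 markers lay below Caprin2 in Brg1 cKO replicates 1 to 3, and 9, 6 and 15 lay below Tdrd7. The 18 markers include Dnase2b and Crybb3, which are read below as genes downstream of Celf1 or Tdrd7. The reference is thus not independent of the members. These counts and the offsets from the marker mean are also approximate, because the markers reach both ends of the scale. Wild-type means of 11 markers lay above log2 13.12, the 99th percentile of all values, where intensities can saturate, and these include 6 of the 7 with a smaller difference than Caprin2.

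**Figure D2:**
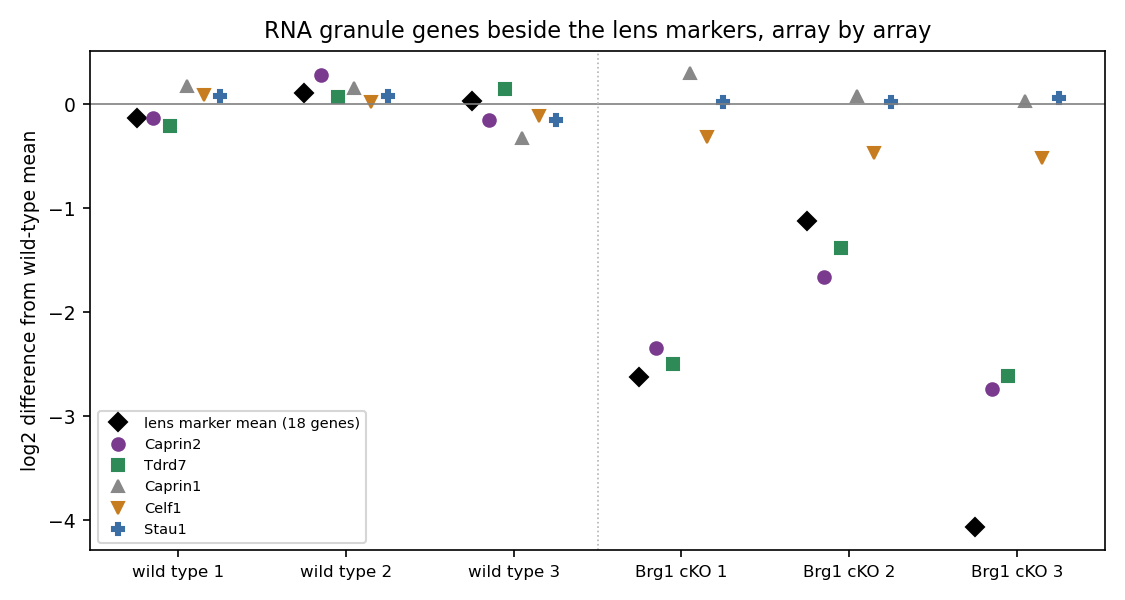
Log2 difference of each array from the wild-type mean (vertical axis) for the mean of 18 lens markers (black diamonds) and the brightest probe set of each of the 5 genes, in 3 wild-type and 3 Brg1 cKO arrays (horizontal axis). In the Brg1 cKO arrays Caprin2 and Tdrd7 lie between -1.38 and -2.74, while the other 3 genes stay between -0.52 and 0.30. Caprin2 and Tdrd7 lie near the markers in replicate 1, below them in replicate 2 and above them in replicate 3.

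Markers of other cell types were read in the same way. Over all genes, 9.3% were at an unadjusted limma p below 0.05 and 0.694% passed the adjusted threshold. The mean of the lens epithelium markers, 7 of 8 measured, differed from the wild types by -0.35, 0.09 and -0.29 in the mutants. Of the 7, 5 were negative and 1, Cdh1, was at an unadjusted p below 0.05 (difference -1.06 without overlap, limma adjusted p = 0.5085). For Foxe3, 4 of 6 values lay under log2 4.84. Whole eyeballs do not show how much of these transcripts came from the lens epithelium. For retinal markers (11 of 14 measured) the differences were 0.39, -0.36 and 0.18, with 0 at an unadjusted or adjusted limma p below 0.05. Myeloid markers (11 of 11) were at 1.13, 2.36 and 1.52, with 10 at an unadjusted p below 0.05 and 1 past the adjusted threshold. Markers of cornified epidermis (10 of 10) were at 1.04, 1.60 and 1.62, with 6 higher at an unadjusted p below 0.05. The 2 past the adjusted threshold, Sprr1a and Sprr1b, differed by 4.99 and 5.55 and weigh most in this mean. Of the 10, 3 had lower means, Krt1 (-0.60), Krt10 (-0.37) and Krt5 (-0.02), and all 6 Flg values lay under log2 4.84. The part of the myeloid and epidermal markers in the values of the 5 genes was not tested.

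Caprin1, the ubiquitous paralog of Caprin2 that binds G3bp1 in stress granules, did not part by genotype in any of its 6 probe sets. The brightest (1448347_a_at) read 12.40, 12.38 and 11.89 in the wild types against 12.52, 12.30 and 12.25 in Brg1 cKO eyeballs. The groups overlapped, with a difference of 0.13 (SE 0.20, 95% interval -0.35 to 0.61, adjusted p = 0.910, exact permutation p = 0.7). The sign turned without wild-type replicate 3 and in the mean of all 6 probe sets (-0.03 and -0.15). The other probe sets differed by -0.39 to 0.09. In the dimmest of them, 1448348_at and 1416463_at, Brg1 cKO replicate 2 read 5.81 and 6.15, lower than any other array (6.48 to 7.25 and 7.27 to 7.76).

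Caprin2 was also read against Caprin1 within each array, where the change between genotypes has a meaning and the level does not. Caprin2 minus Caprin1 was -1.82, -1.38 and -1.33 in the wild types against -4.15, -3.25 and -4.28 in Brg1 cKO eyeballs. The groups did not overlap, and the difference of -2.38 reached the smallest exact permutation p of 0.1. Because Caprin1 itself overlapped between genotypes, this mostly repeats the Caprin2 difference of the same arrays and is not a further test.

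Celf1 encodes a protein that binds GU-rich elements and controls splicing, translation and decay of its targets. Its brightest probe set (1426407_at) read 12.60, 12.54 and 12.40 in the wild types against 12.19, 12.04 and 12.00 in Brg1 cKO eyeballs. All mutants lay below all wild types, with spreads of 0.10 in each group (SD, n = 3). The difference was -0.43 (SE 0.16, 95% interval -0.82 to -0.05), or 74.0% of the wild-type intensity, and did not pass over all probe sets (adjusted p = 0.524, exact permutation p = 0.1).

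The other Celf1 probe sets gave differences of either sign. Probe set 1427413_a_at read 11.38, 11.29 and 11.40 against 11.00, 10.39 and 11.03, again without overlap (difference -0.55, SE 0.22, adjusted p = 0.552). Probe set 1426408_at read 11.96, 11.82 and 11.86 against 12.28, 11.68 and 12.00, with overlap and a difference of 0.11 (SE 0.20, adjusted p = 0.927). Of the 10 pairs of Celf1 probe sets, 2 had changes that parted without overlap, each at the smallest exact permutation p of 0.1, and both pairs hold 1426408_at. The other 8 overlapped, and of all pairs of probe sets that name the same gene 11.3% parted (1450 of 12821). The change of 1426408_at minus that of 1426407_at was 0.54, and the change of 1427413_a_at minus that of 1426408_at was -0.66. The 2 dim probe sets, 1425932_a_at and 1423932_at, differed by -0.29 and -0.86 with overlap, and in the latter 4 of 6 values lay under log2 4.84. The exons or isoforms that each of these probe sets reads were not analysed here.

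Stau1, the double-stranded RNA-binding protein of Staufen transport granules, overlapped between genotypes in all of its probe sets. Its brightest probe set (1450741_at) read 11.05, 11.05 and 10.82 in the wild types against 10.99, 10.99 and 11.02 in Brg1 cKO eyeballs. The difference was 0.03 (SE 0.16, 95% interval -0.35 to 0.41, adjusted p = 0.976, exact permutation p = 1). It turned to -0.05 without wild-type replicate 3 and to -0.03 in the mean of its probe sets. Probe set 1435347_at differed by -0.26 and 1422766_at by 0.13, both with overlap (adjusted p = 0.857 and 0.902).

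Together, the 14 probe sets of Caprin1, Celf1 and Stau1 differed by -0.86 to 0.13, with 9 below and 5 above 0, and none passed the test (adjusted p = 0.524 to 0.976). In 8 of the 14, Brg1 cKO replicate 2 was the lowest of all 6 arrays, which was the case for 28.0% of all probe sets. The gaps between the 3′ and 5′ control probe sets, a sign of RNA length, did not set that array apart in 1 direction. For actin the gap was 1.29 and 1.34 log2 units in Brg1 cKO replicates 1 and 2, against 0.93 to 1.12 in wild type, and for Gapdh it was 1.05 in replicate 2, against 0.73 to 0.87 in the other 5 arrays. For pyruvate carboxylase it was 2.22 and 1.93 in replicates 1 and 2, below the 2.32 to 2.78 of wild type. For the transferrin receptor replicate 1 was at 4.44 and replicate 2 at 3.31, against 2.67 to 3.14. The part of this in the values was not tested. Without replicate 2 the brightest probe sets of Caprin1, Celf1 and Stau1 differed by 0.16, -0.42 and 0.04.

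**Figure D3:**
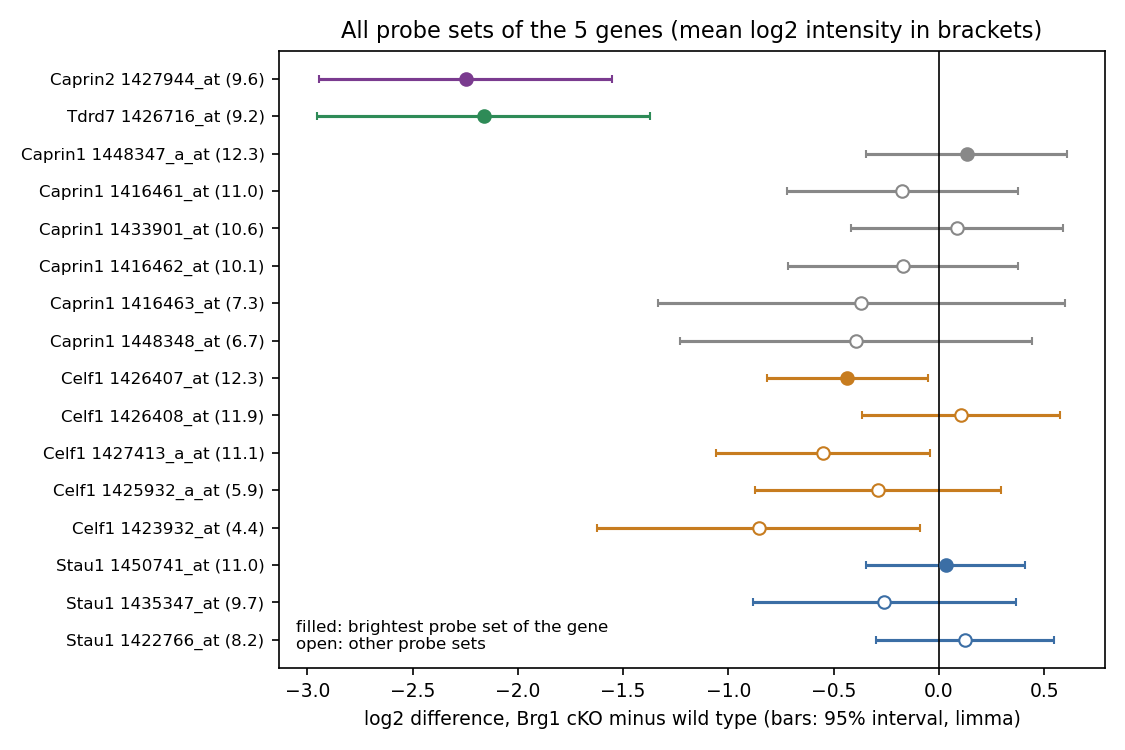
Log2 difference between Brg1 cKO and wild type (horizontal axis, 3 arrays each) for all 16 probe sets, with 95% intervals from limma, filled points for the brightest probe set of a gene and the mean log2 intensity in brackets. The intervals of Caprin2 and Tdrd7 end at -1.55 and -1.37, while of the other 14 probe sets 3 of Celf1 have intervals ending between -0.09 and -0.04 and 11 span 0. These intervals are not adjusted for the number of probe sets.

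The paralogs of the members, and the stress granule genes G3bp1 and G3bp2, did not part by genotype. Celf2 differed by 0.02 in its brightest probe set (adjusted p = 0.984) and by -0.17 to -0.15 in the others. Celf4 differed by -0.19 in its brightest (adjusted p = 0.877) and by -0.65 and -0.68 in the dimmer ones (adjusted p = 0.758 and 0.755), with overlap. Stau2, which carries transcripts in neurons, differed by -0.16 in its brightest (adjusted p = 0.933) and by 0.04 and -0.33 in the others. Tdrd3 differed by 0.21 (adjusted p = 0.843), and Tdrd1, a germline protein, lay under log2 4.84 in all 6 arrays. The G3bp1 probe sets differed by -0.30 and -0.32, and those of G3bp2 by -0.18, 0.05 and -0.66, all with overlap.

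Genes listed as downstream of Tdrd7 or Celf1 in the lens gave 6 that were measured, and none passed the adjusted threshold. The arrays read their RNA and cannot show control of translation. Of the 6, 2 were lower at an unadjusted limma p below 0.05, as were 3.74% of all genes, and both are also lens markers. Dnase2b, the nuclease that clears fiber cell DNA and a Celf1 target, read 8.07, 8.52 and 8.90 in the wild types against 3.15, 5.78 and 2.67 in Brg1 cKO eyeballs. That is a difference of -4.63 (SE 0.75, adjusted p = 0.0618) without overlap, and 2 of the mutant values lay under log2 4.84. Crybb3, a crystallin gene and a Tdrd7 target, read 13.80, 13.99 and 13.83 against 10.93, 13.15 and 9.17, a difference of -2.79 (SE 0.87, adjusted p = 0.401) without overlap.

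The other genes of this list had smaller RNA differences. Epha2, a receptor kinase of the fiber cell membrane, read 6.48, 6.41 and 6.57 against 6.19, 5.97 and 6.33, a difference of -0.32 (SE 0.17, adjusted p = 0.705) without overlap. Hspb1, a small heat shock protein, differed by -0.16 (SE 0.40, adjusted p = 0.949). The cell cycle inhibitors Cdkn1b and Cdkn1a differed by -0.35 and 0.70 (adjusted p = 0.877 and 0.731), with overlap.

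Other RNA granule genes were taken from 5 lists without the members themselves, 66 of 90 genes having a probe set of their own. None of the 66 passed the limma adjusted threshold, 2 were at an unadjusted p below 0.05 and both of these were higher in Brg1 cKO (3.03% of the lists, where 9.3% of all genes were at that level). Without Brg1 cKO replicate 3 there were 9, or 13.6% of the lists against 12.0% of all genes, so that the smaller share rests on that array. The median difference was -0.08, against 0.02 over all 12393 genes, and 44 of 66 were negative, against 47.1% of all genes. Of the lists, 18 stress granule genes had a median of -0.10, 11 processing body genes -0.09, 14 transport granule genes -0.14, 15 CELF, splicing and decay genes -0.11, and 8 tudor and germ granule genes 0.22. In the last list 4 of the 8 had means under log2 4.84 in both groups, near the low end of the scale. The mean of each list in Brg1 cKO replicates 1 to 3 was set against the wild types. Stress granule genes were at 0.05, -0.19 and 0.02, and processing body genes at -0.07, -0.20 and -0.01. Transport granule genes were at -0.11, -0.51 and 0.03, so that replicate 2 was the lowest in these lists. It was not in the CELF list (-0.145, -0.05 and 0.15) or the tudor list (0.27, 0.29 and 0.13).

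**Figure D4:**
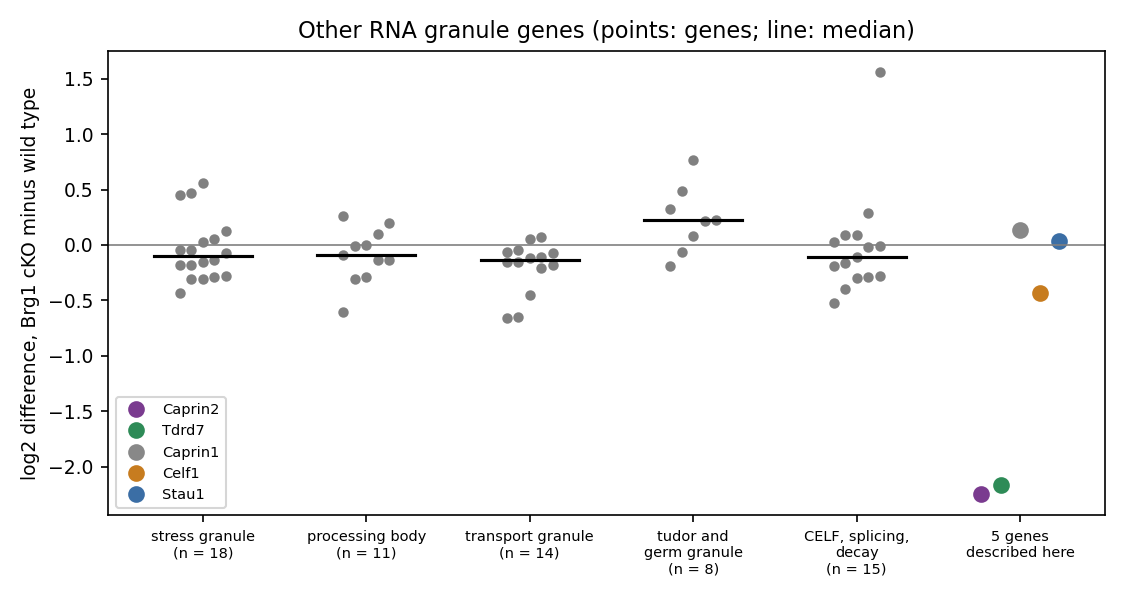
Log2 difference between Brg1 cKO and wild type (vertical axis, 3 arrays each) of each measured gene of 5 RNA granule lists (grey points, with the median as a line) and of the 5 genes described here (coloured). The 66 listed genes lie between -0.66 and 1.56, and Caprin2 and Tdrd7 lie below all of them.

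The listed genes with the smallest p in each list give the size of these differences. Piwil2, a Piwi protein of germ granules, read 5.46, 5.03 and 5.16 in the wild types against 6.33, 5.65 and 5.97 in Brg1 cKO eyeballs, a difference of 0.77 without overlap (SE 0.23, adjusted p = 0.376). Zfp36, which promotes decay of AU-rich transcripts, read 6.30, 5.49 and 7.08 against 6.82, 8.97 and 7.77, a difference of 1.56 with overlap (SE 0.59, adjusted p = 0.529) in which Brg1 cKO replicate 2 was the highest. Ddx6, the helicase of processing bodies, differed by -0.30 without overlap (adjusted p = 0.697). Xrn1, the 5′ to 3′ exonuclease, differed by -0.60 and Tnrc6a, a microRNA effector, by -0.29, both with overlap. Among stress granule genes Ubap2l differed by 0.56, Fxr2 by 0.47 and Eif2ak2, the interferon-induced kinase PKR, by 0.45. The transport granule genes Nova1, Cpeb1 and Purb differed by -0.65, -0.66 and -0.45, where 5 of 6 Cpeb1 values lay under log2 4.84. Akap1 and Snd1 differed by 0.48 and 0.33, and the splicing regulators Mbnl1 and Rbm38 by -0.52 and -0.28.

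The genes whose values ran most like those of the members over the 6 arrays were sought among 4829 genes above the 25th percentile of intensity with an SD of at least 0.3. For Caprin2 these were Cnmd, Mip, Tent5c, Fgfr3 and Tdrd7 (Pearson r from 0.997 down to 0.985). For Tdrd7 they were Dnase2b, Emid1, Mip, Glycam1 and Scgn (r from 0.998 down to 0.988). Mip, the lens fiber water channel, stood in both lists, with a difference of -2.51 (adjusted p = 0.0618). For Celf1 they were Sytl1, Gpha2, Slc46a3, Col4a6 and Adam28 (0.981 to 0.975). Caprin1 was followed most closely by Ccnf, Zc3h10, Mtag2, Mrpl44 and Apex2 (0.988 to 0.952), and Stau1 by Rpe, Fzd2, Topors, Phf13 and Cuedc1 (0.974 to 0.934). Because the arrays fall into the 2 genotypes, r for Caprin2, Tdrd7 and Celf1 mostly follows the gap between them. Caprin1, Celf1 and Stau1 varied little (SD 0.215, 0.255 and 0.088 over the 6 arrays), so their likeness rests on small differences. For Caprin2 and Tdrd7 the SD was 1.288 and 1.266. These values of r are a description over 6 arrays that share 1 normalization.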

How the data were processed

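RNA of 6 eyeballs was amplified from 50 ng of total RNA (NuGEN Ovation) and hybridised to Affymetrix mouse arrays. The authors processed the arrays with RMA, and deposited linear intensities, which were converted to log2 here. RMA equalises arrays, and intensities near background understate folds. Of 22690 rows, 64 array controls were left out. Genes were named from the platform annotation (20380 probe sets with 1 gene, 691 with several, 1555 unnamed).

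Genotypes were compared with limma 3.58.1 (R 4.3.3), genotype as the only term, with Benjamini-Hochberg adjustment over 22626 probe sets and a threshold of 0.05. The model was tested on simulated data. The samples are biological replicates by the labels. The genes, lists and tests were chosen with earlier results of these data known, and nothing in them is independent support. Named genes are the members, Smarca4, paralogs, G3bp1, G3bp2 and the genes listed as downstream of Tdrd7 or Celf1. Also named are 3 genes per RNA granule list with the smallest p, and 5 per member by likeness. Alternatives left out each array, added a replicate block, filtered dim probe sets, normalized again, used a pseudocount of 16, changed the variance model, averaged probe sets and applied the methods' template matching (p under 0.05, fold over 1.5).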

Additional observations from a re-analysis of the deposited data

How the results depend on the processing

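Leaving out each array in turn gave Caprin2 differences of -2.54 to -2.002, and its call was lost without wild-type replicates 1, 2 or 3 or Brg1 cKO replicates 1 or 3 and with a pseudocount of 16 (-2.20). For Tdrd7 the range was -2.56 to -1.94, and it passed without Brg1 cKO replicate 2 (-2.56). At -2.16 it also passed with a trended, robust variance, by template matching and with the mean of probe sets, which leaves its 1 probe set unchanged. Caprin1 ranged from -0.033 (without wild-type replicate 3) to 0.22 and was -0.15 in the mean of its probe sets, and Stau1 from -0.046 (same replicate) to 0.072 and was -0.034. Relative to lens markers, Caprin2 ranged from -0.13 (without Brg1 cKO replicate 3) to 0.80 and Tdrd7 from -0.068 (same replicate) to 0.79. The median of the markers in place of their mean, an alternative chosen after seeing the data, gave 0.26 and 0.34. The cause of these changes was not tested. Celf1 kept its direction and did not pass in 13 alternatives, and the granule lists gave 0 calls in 12, with 2 to 9 genes at an unadjusted p below 0.05, the most without Brg1 cKO replicate 3.

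Over all probe sets, 24 to 216 passed when 1 array was left out, against 115 with all, and 32 with a pseudocount of 16. Same-numbered arrays deviated together with correlations of 0.06, 0.08 and 0.12, and no wild-type array correlated best with its own number. The numbers thus gave no sign of pairing, but these correlations cannot exclude that littermates share a number. With a replicate block 45 probe sets passed, Caprin2 at -2.25 (adjusted p = 0.0435) and Tdrd7 not (-2.16, adjusted p = 0.0899). The number of arrays limits the precision.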
